A study of Mus musculus with 4 samples.

Results

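A set of 10 genes that tumour cells can use to restrain lymphocytes and phagocytes were followed in Hepa1-6, a mouse hepatocellular carcinoma cell line: 6 ligands of lymphocyte receptors (Cd274, Pdcd1lg2, Cd276, Vtcn1, Pvr and Nectin2), the phagocyte signal Cd47, the adenosine-forming enzymes Entpd1 and Nt5e, and the tryptophan-degrading enzyme Ido1. They were chosen by symbol, and all 10 were found among the 54838 genes in each file. RNA from 2 libraries labelled NC, Acvr2a wild type, was compared with RNA from 2 libraries labelled KO, Acvr2a knockout. Acvr2a encodes a type II receptor for activin, and the title of the series frames the comparison around lactate, glycolysis and regulatory T cells. The design text speaks of KO subclones. Neither the number of clones nor the way the gene was disrupted is given in the sources used here, and nothing says that the libraries of a group came from separate cultures, so p-values measure only the spread between these libraries.

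Checkpoint ligands are surface proteins that bind inhibitory or mixed receptors on T cells and natural killer cells and raise or lower the threshold for killing. PD-L1 (Cd274) and PD-L2 (Pdcd1lg2) bind PD-1, the poliovirus receptor (Pvr) and nectin-2 (Nectin2) bind TIGIT and CD226, and CD47 binds SIRP-alpha on macrophages to prevent engulfment. The ectoenzymes CD39 (Entpd1) and CD73 (Nt5e) act in sequence to turn extracellular ATP into adenosine, which dampens T cells through its own receptors. IDO1 breaks down tryptophan to kynurenine and is classically induced, like PD-L1, by interferon-gamma.

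Libraries held 11597923 to 13910582 counts. Acvr2a itself was counted 81 and 108 times in NC1 and NC2 and 75 and 97 times in KO1 and KO2, so its RNA did not separate the groups (log2 fold change -0.21, 95% interval -0.63 to 0.20, edgeR adjusted p = 0.433), and exons of Orc4 overlap it on the opposite strand. Its RNA level therefore does not check the labels, and each direction below is between libraries labelled KO and libraries labelled NC. Of 10 hepatocyte markers 9 were tested, and the albumin gene Alb had 9550 to 15545 counts a library, whereas Ttr had 1, 0, 1 and 0. Alb and Trf rose, and Afp, Hnf4a and Fgb fell, with log2 fold changes from -1.21 to 0.54. Leukocyte markers were near absent: 7 of 16 (among them Cd3d, Cd3e, Cd8a, Ms4a1, Tyrobp and Nkg7) had no count in any library, and the pan-leukocyte gene Ptprc had 0, 1, 2 and 2. The summed TPM (a transcript level scaled by gene length and depth) of the 16 was at most 29.0 in NC and was 57.6 and 69.3 in KO1 and KO2, almost all of it from Cd68, a lysosomal protein gene. Without Cd68 it was 0.96 to 2.03 over the 4 libraries. Of 10 endothelial and fibroblast markers, Cdh5, Tek and Col3a1 had no count, and the proteoglycan gene Dcn was at 1032 to 1234 TPM in each library. The other 9 summed to 3.24 and 3.65 TPM in NC and 8.17 and 7.16 TPM in KO, and Col1a1 and Pdgfra, a collagen and a growth factor receptor gene, rose (log2 fold changes 2.73 and 0.97, edgeR adjusted p = 3.05e-05 and 5.42e-06). Col1a1, counted 6, 5, 38 and 41 times in NC1, NC2, KO1 and KO2, passed the filter on low counts only through its KO libraries. The part of these markers in the results was not tested, and in bulk RNA fewer cells of a type and less RNA per cell cannot be told apart.

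The promoters of 3 genes are shown to go with the contrasts below. Cd274 and Pdcd1lg2 are neighbours on chromosome 19, 22824 bases apart, and only the first passed the test. Vtcn1 had the widest log2 fold change of the 8 that could be tested. The sequences are RefSeq promoters (GRCm38.p6), 250 bases before and 50 after the annotated start, each on the plus strand, 5′ to 3′, from chr19:29367188-29367487, chr19:29410669-29410968 and chr3:100825209-100825508. Capitals mark matches to any of 5 motifs, read on both strands: the interferon element core GAAANNGAA, the STAT element TTCNNNGAA, the hypoxia element ACGTG, the AP-1 site TGANTCA and the SMAD box CAGAC.
Cd274: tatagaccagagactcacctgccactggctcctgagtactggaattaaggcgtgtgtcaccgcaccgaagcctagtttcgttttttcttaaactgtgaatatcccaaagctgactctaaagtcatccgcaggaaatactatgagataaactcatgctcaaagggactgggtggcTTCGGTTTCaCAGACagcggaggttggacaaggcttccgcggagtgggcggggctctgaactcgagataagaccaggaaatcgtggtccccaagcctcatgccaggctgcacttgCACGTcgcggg
Pdcd1lg2: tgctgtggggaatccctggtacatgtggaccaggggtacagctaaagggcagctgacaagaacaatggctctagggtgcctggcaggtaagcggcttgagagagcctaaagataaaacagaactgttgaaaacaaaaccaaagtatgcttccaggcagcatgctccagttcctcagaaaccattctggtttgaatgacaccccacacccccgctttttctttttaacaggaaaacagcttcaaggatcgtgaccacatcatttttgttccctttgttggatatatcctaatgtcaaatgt
Vtcn1: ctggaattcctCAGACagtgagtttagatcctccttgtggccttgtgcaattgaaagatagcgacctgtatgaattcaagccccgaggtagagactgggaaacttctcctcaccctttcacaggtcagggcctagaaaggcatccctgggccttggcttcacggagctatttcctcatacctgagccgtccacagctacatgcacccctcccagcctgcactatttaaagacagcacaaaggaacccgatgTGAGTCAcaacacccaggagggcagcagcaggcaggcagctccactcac

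In the Cd274 window the capitals are an interferon element core at -76 to -68 (position 1 being the annotated start), a SMAD box at -66 to -62 and a hypoxia element at 40 to 44. These motifs occur in 8.56%, 49.6% and 19.6% of all 32851 promoters of this length. The Pdcd1lg2 window holds no match to the 5 motifs. Vtcn1 holds a SMAD box at -239 to -235 and an AP-1 site, found in 7.81% of promoters, at 2 to 8. Among the other genes with a promoter in the table, Nectin2, Cd276, Nt5e and Entpd1 hold SMAD boxes and Cd47 a hypoxia element. STAT elements, held by 8.30% of promoters, matched in none of these windows, and no matches within a printed window overlapped. Promoters of 8 of the 10 genes were matched, and Pvr and Ido1 were not. A match describes letters in a window, and binding was not measured.

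Levels of the 10 genes fell into 3 tiers. Pvr, Nectin2, Cd276 and Pdcd1lg2 lay between 35.9 and 64.1 TPM in every library, Cd47 and Cd274 between 13.1 and 26.8 TPM, and Vtcn1 and Nt5e between 0.25 and 1.49 TPM. Ido1 and Entpd1 were at 0.33 TPM or less. Averaged over the libraries, the TPM of Pvr exceeded that of 82.4% of tested genes, that of Cd274 59.0% and that of Nt5e 3.97%. Within the first tier Pvr was highest in NC1, NC2 and KO1 and Nectin2 in KO2. The place of Nectin2 relative to Cd276 and Pdcd1lg2 differed between NC1 and NC2, and its place relative to Pvr differed between KO1 and KO2. In KO1 and KO2 Nectin2, at 60.7 and 56.1 TPM, lay above Cd276 (40.4 and 40.4 TPM) and Pdcd1lg2 (43.5 and 40.6 TPM). The order of 3 pairs was the same within each group and differed between the groups. Cd276 was above Pdcd1lg2 in both NC libraries and below it in KO1, with 40.4 against 43.5 TPM, and by a narrow margin in KO2, with 40.4 against 40.6 TPM. Cd274 was below Cd47 in both NC libraries and above it in KO1, with 21.3 against 19.0 TPM, and in KO2, with 26.8 against 22.1 TPM. Nt5e was below Vtcn1 in both NC libraries and above it in both KO libraries.

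**Figure D1:**
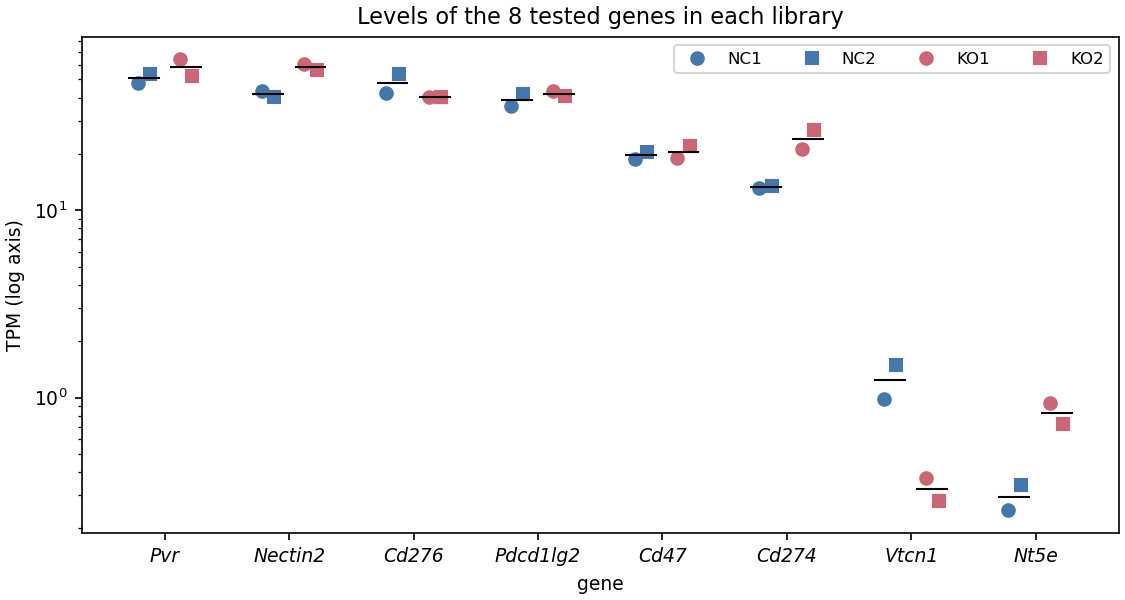
TPM of the 8 genes that could be tested, on a log axis, with circles for replicate 1, squares for replicate 2, NC in blue, KO in red and black lines at the group means. Cd274, Nectin2 and Nt5e sit higher in both KO libraries, Vtcn1 sits lower, and Pvr, Cd47 and Pdcd1lg2 overlap.

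Tested against the replicate spread, 3 of the 10 genes were higher in KO (Cd274, Nectin2 and Nt5e), 2 were lower (Vtcn1 and Cd276), 3 did not pass (Pdcd1lg2, Pvr and Cd47), and 2 had too few counts to test (Ido1 and Entpd1). A gene passed at a Benjamini-Hochberg adjusted p under 0.05 in edgeR's quasi-likelihood test over 12510 genes, of which 37.9% passed, 19.7% higher and 18.2% lower. Of the 8 tested genes 5 passed, and Vtcn1 entered the test through its NC counts, so this count is given as a description beside the background. The CPM (counts scaled to TMM-adjusted library size) of NC and KO did not overlap for 5 of the 8, against 69.4% of all genes tested. The median log2 fold change was 0.094 over the 8 and -0.0037 over all tested genes. An exact permutation test of 2 against 2 libraries cannot give a two-sided p below 0.333.

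**Figure D2:**
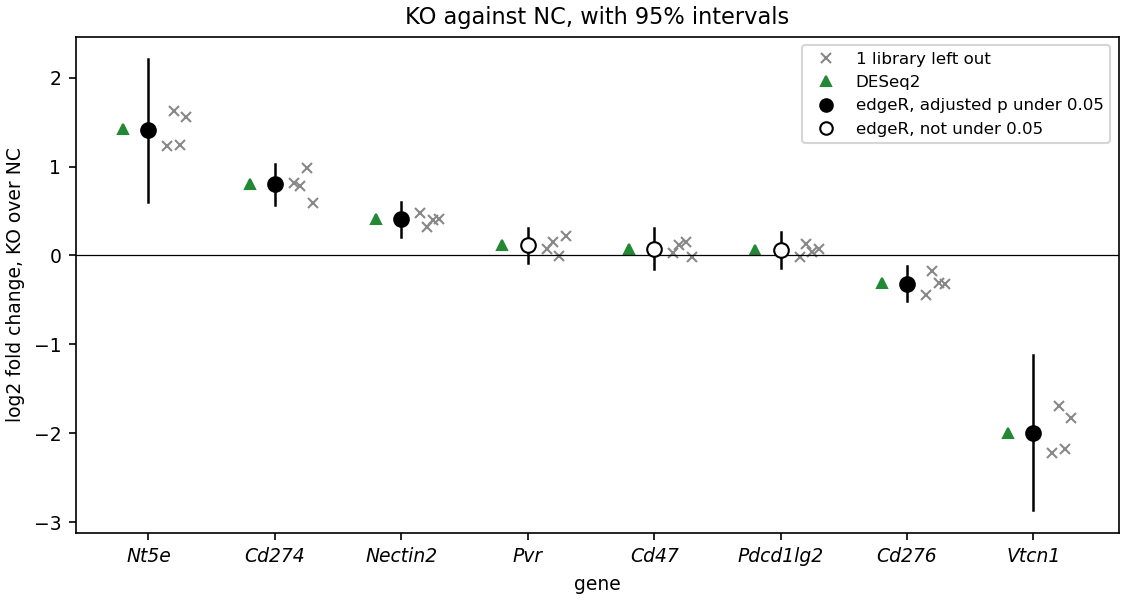
Log2 fold change of KO over NC in the 8 tested genes, with 95% intervals from edgeR, filled where the adjusted p is under 0.05. Triangles give DESeq2 and crosses the fits that leave out 1 library. Nt5e, Cd274 and Nectin2 lie above 0 and Cd276 and Vtcn1 below 0 in each of these fits.

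Cd274 (ENSMUSG00000016496.7, chromosome 19, 29367455 to 29388095 on GRCm38), which encodes PD-L1, was counted 475 and 564 times in NC1 and NC2 and 819 and 1102 times in KO1 and KO2. Its level was 41.8 and 40.7 CPM in NC and 62.2 and 81.6 CPM in KO. The NC libraries were alike, both KO libraries lay above them, and the KO libraries differed from each other. The mean rose from 41.3 ± 0.74 to 71.9 ± 13.7 CPM (SD, n = 2), a 1.74-fold difference (95% interval 1.49 to 2.05) (log2 fold change 0.80, SE 0.11, edgeR adjusted p = 3.03e-06). Leaving out KO1 gave 0.98 and leaving out KO2 gave 0.59, with the call kept in both. Exons of AC119228.1, on the opposite strand, overlap those of Cd274, and whether the counting used strand is not given in the sources used here.

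Pdcd1lg2 (ENSMUSG00000016498.9, chromosome 19, 29410919 to 29471161), the gene of the other PD-1 ligand, was at 47.4 and 52.2 CPM in NC1 and NC2 and 52.6 and 51.3 CPM in KO1 and KO2. Its log2 fold change was 0.059 (SE 0.10, 95% interval -0.15 to 0.26, edgeR adjusted p = 0.680), and the sign turned to -0.014 without NC1. NC1 was the lowest library, and NC2 lay within the range of the KO libraries. Per length, PD-L2 RNA exceeded PD-L1 RNA in every library. The TPM ratio of Cd274 to Pdcd1lg2 was 0.366 and 0.324 in NC1 and NC2 and 0.490 and 0.660 in KO1 and KO2. The ratios of the groups did not overlap, and with 2 against 2 libraries an exact permutation test of the ratio cannot reach p under 0.05.

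Genes around this pair were read as well. Of the 6 genes tested within 200 kb of Pdcd1lg2, 3 passed and were higher, among them Cd274 itself, beside 19.7% of all tested genes. The others were the plasminogen receptor gene Plgrkt (0.34, SE 0.13, edgeR adjusted p = 0.0376) and Ric1, a Golgi trafficking factor (0.28, SE 0.10, adjusted p = 0.0222). Jak2, a kinase of the interferon-gamma receptor, was at 0.22 (SE 0.09, adjusted p = 0.0531) and passed when library totals replaced TMM scaling (adjusted p = 0.0375). The calls were lost with DESeq2 for Plgrkt (adjusted p = 0.146) and Ric1 (adjusted p = 0.0554), for Plgrkt without any 1 library (adjusted p 0.0723 to 0.130), and for Ric1 without NC1 (0.0549), NC2 (0.161) or KO2 (0.204).

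Nectin2 (ENSMUSG00000062300.14, chromosome 7, 19716644 to 19750483), an adhesion molecule of the immunoglobulin family, was at 94.2 and 84.2 CPM in NC1 and NC2 and 118.6 and 117.3 CPM in KO1 and KO2. Both KO libraries lay above both NC libraries. The mean rose from 89.2 ± 7.07 to 118 ± 0.97 CPM (SD, n = 2), 1.32-fold (95% interval 1.16 to 1.51, log2 fold change 0.40, SE 0.09, edgeR adjusted p = 0.00125). The call was kept without NC2 (0.33, adjusted p = 0.0427) and in the other fits with 1 library left out. The opposite-strand gene Gm20512, which overlaps its exons, had 0 counts in each library.

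Pvr (ENSMUSG00000040511.14, chromosome 7, 19903578 to 19921160), a relative of nectin-2 that also binds TIGIT and CD226, was at 97.2 and 101.5 CPM in NC1 and NC2 and 115.8 and 99.3 CPM in KO1 and KO2. KO1 was the highest library and KO2 lay between the NC libraries. The log2 fold change was 0.11 (SE 0.10, 95% interval -0.085 to 0.31, adjusted p = 0.376), and it was -0.0021 without KO1. The TPM ratio of Nectin2 to Pvr was 0.904 and 0.753 in NC1 and NC2 and 0.947 and 1.08 in KO1 and KO2. The groups' ratios did not overlap, but the gap between NC1 and KO1 was narrower than the spread within either group. An exact permutation test of 2 against 2 libraries cannot reach p under 0.05 for this ratio either. KO2 was the only library in which Nectin2 was above Pvr.

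Pvr and Nectin2 lie 153095 bases apart in a dense part of chromosome 7, and genes there differed in both directions. Within 200 kb of Nectin2 18 genes were tested, of which 3 were higher and 9 lower, beside 19.7% and 18.2% of all tested genes. Of the 3, Gm19345, named after its values were seen, had 2, 4, 11 and 20 counts and entered the test only through its KO libraries. The laminin receptor gene Bcam, next to Nectin2, rose by 0.59 on the log2 scale (SE 0.09), whereas the apolipoprotein gene Apoe and the mitochondrial import gene Tomm40 on the other side fell, to -0.93 (SE 0.10) and -0.70 (SE 0.10), each with an edgeR adjusted p at or under 1.12e-05.

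**Figure D3:**
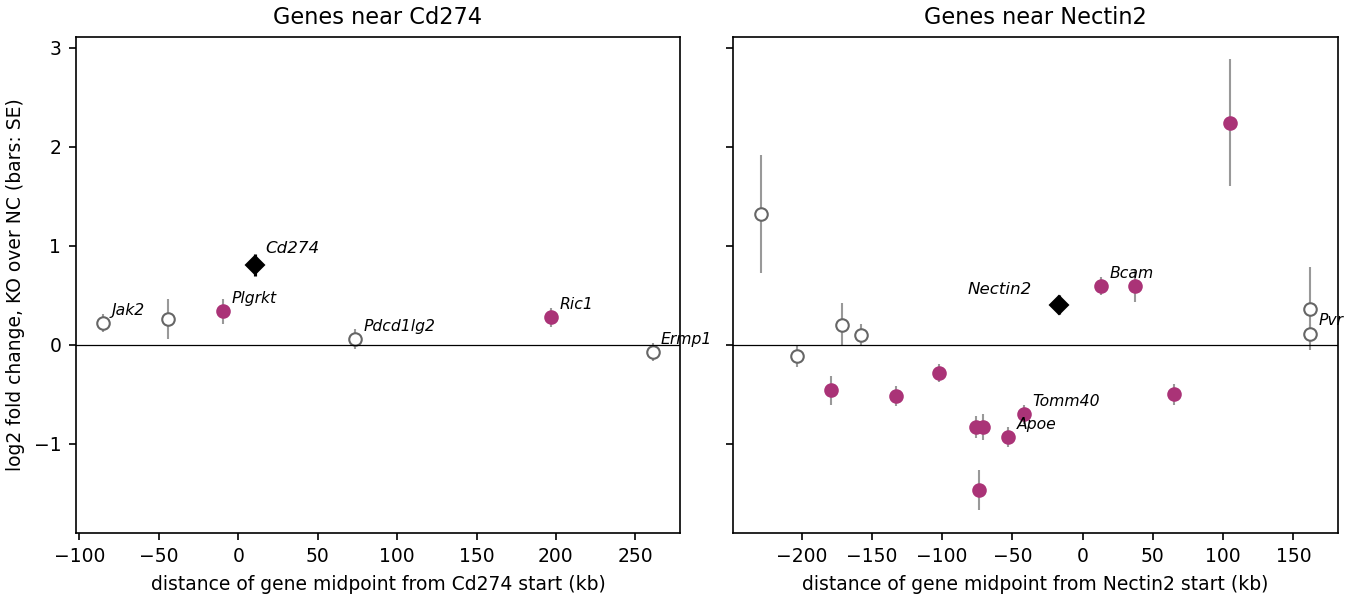
Log2 fold change (KO over NC, bars SE) of tested genes against the distance of each gene's midpoint from the start of Cd274 or Nectin2, in kb. Diamonds mark Cd274 and Nectin2, filled circles an adjusted p under 0.05. The left panel holds genes within 200 kb of Cd274 or Pdcd1lg2, and those other than Cd274 lie between -0.076 and 0.34, while those near Nectin2 lie on both sides of 0.

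Receptors for these ligands belong to lymphocytes, and 9 of the 11 listed fell under the filter on low counts. Ctla4, Cd226 and Btla had no count, and Pdcd1, the PD-1 gene, had 1 in all libraries together. The exception was Tigit (ENSMUSG00000071552.5, chromosome 16, 43648867 to 43664146), the inhibitory receptor for Pvr and Nectin2. It was counted 338 and 496 times in NC1 and NC2 and 244 and 238 times in KO1 and KO2. Its level of 46.5 and 59.2 TPM in NC and 31.8 and 28.9 TPM in KO stood beside 48.1 to 64.1 TPM for Pvr and 40.5 to 60.7 TPM for Nectin2. Tigit fell by 0.86 on the log2 scale in KO, from 32.8 ± 4.30 to 18.1 ± 0.64 CPM (SD, n = 2, SE of the log2 fold change 0.13, edgeR adjusted p = 7.80e-06). No annotated exon of another gene overlaps it, but the reads were not examined here, so whether these counts come from spliced Tigit transcripts was not tested. Beside them, the T-cell genes Cd3d, Cd3e and Cd8a had no count. Lag3, the other receptor gene tested, was counted 8, 9, 14 and 12 times in NC1, NC2, KO1 and KO2 and did not pass (0.52, adjusted p = 0.448). It entered the test only through its KO libraries.

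Cd276 and Vtcn1, the B7-H3 and B7-H4 genes, were both lower in KO. Their receptors are not settled, and both proteins are known to restrain T cells. Cd276 (ENSMUSG00000035914.11, chromosome 9, 58524298 to 58555437) was at 119 and 143.6 CPM in NC1 and NC2 and 105.05 and 106 CPM in KO1 and KO2. NC2 stood above the other 3 libraries. Its log2 fold change was -0.32 (SE 0.10, 0.80-fold with a 95% interval of 0.70 to 0.92, edgeR adjusted p = 0.0122). Without NC2 the value was -0.17 and the call was lost (adjusted p = 0.315), as it was on log2(TPM + 1) (-0.23, limma adjusted p = 0.268). Over the 4 libraries Gm10657, whose exons overlap on the opposite strand, had 2 to 4 counts each.

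Vtcn1 (ENSMUSG00000051076.8, chromosome 3, 100825459 to 100896922) was counted 25 and 44 times in NC1 and NC2 and 10 and 8 times in KO1 and KO2. Both KO libraries lay below both NC libraries. The mean fell from 2.69 ± 0.69 to 0.676 ± 0.118 CPM (SD, n = 2), 3.98-fold lower (log2 fold change -1.99, SE 0.43, 95% interval -2.87 to -1.12, edgeR adjusted p = 0.000561). Because the gene passed the count filter on its NC libraries, the fit without a filter was read too, and Vtcn1 passed there (edgeR adjusted p = 2.35e-05). That fit uses the same counts, so it is no separate evidence for the difference. Without NC2 the log2 fold change was -1.69. At 1.49 TPM or less in each library, few reads set its fold.

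Cd47 (ENSMUSG00000055447.19, chromosome 16, 49800533 to 49915010) was at 32.0 and 33.8 CPM in NC1 and NC2 and 32.6 and 36.7 CPM in KO1 and KO2, and the groups overlapped. Its log2 fold change of 0.075 (SE 0.11, 95% interval -0.16 to 0.30, adjusted p = 0.632) turned to -0.015 without KO2. The list around Cd47 held 11 genes for its maturation, its partners and opposing signals, of which 8 were tested. The 4 that rose were Itgav (0.61), an integrin subunit, Lrp1 (0.48), a receptor of calreticulin, B2m (0.31), the light chain of MHC class I, and Calr (0.25), the calreticulin gene. Thbs1, the gene of the CD47 ligand thrombospondin-1, fell (-0.24, edgeR adjusted p = 0.0366). The median of the 8 was 0.18. Exons of Gm13684 overlap those of Itgav, and exons of Gm29233 those of Thbs1, on the opposite strand. These 5 of 8 (62.5%) stand beside 37.9% of all genes. Only Itgav and Lrp1 passed in each fit with 1 library left out, and only Itgav passed on log2(TPM + 1), where Lrp1 was at 0.21 (limma adjusted p = 0.230). B2m was lost without NC1 (adjusted p = 0.129), Calr without NC1 (0.274), KO1 (0.0719) or KO2 (0.0516), and Thbs1 without NC2 (0.265) or KO1 (0.117). Sirpa, the receptor gene, had no count, and Qpctl, which encodes the enzyme that modifies CD47 for binding, did not pass (-0.19, adjusted p = 0.438).

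Of the adenosine pair, Nt5e was low and Entpd1 nearly unread. Nt5e (ENSMUSG00000032420.8, chromosome 9, 88327197 to 88372092) was counted 10 and 16 times in NC1 and NC2 and 40 and 33 times in KO1 and KO2, and the groups did not overlap. It rose from 1.02 ± 0.20 to 2.74 ± 0.42 CPM (SD, n = 2), 2.65-fold (95% interval 1.52 to 4.61, log2 fold change 1.41, SE 0.39, edgeR adjusted p = 0.00554). The call was lost without KO1 (1.24, adjusted p = 0.0768), with DESeq2 (1.42, adjusted p = 0.0536) and on log2(TPM + 1) (0.50, limma adjusted p = 0.0575). Within 200 kb of it 5 genes were tested, 2 higher and 1 lower, beside 19.7% and 18.2% of all tested genes.

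Entpd1 (ENSMUSG00000048120.16, chromosome 19, 40612366 to 40741602) had 0 counts in NC1, NC2 and KO2 and 2 in KO1. A count of 0 allows up to 3 counts, or 0.259 CPM in NC1, 0.216 CPM in NC2 and 0.222 CPM in KO2, here over library totals without TMM adjustment. No difference was detectable at this depth. Such limits and the intervals on counts cover counting error only.

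Other genes of nucleotide breakdown, adenosine use and its receptors were read from a list of 28, of which 19 were tested and 9 passed, 5 higher and 4 lower, with a median log2 fold change of 0.18. The share that passed was 47.4%, beside 37.9% of all genes. The surface ATPase genes Entpd2 and Entpd3, relatives of Entpd1, rose. Entpd2 went from 47.6 and 47.4 CPM in NC1 and NC2 to 65.6 and 78.4 CPM in KO1 and KO2 (log2 fold change 0.60, SE 0.10, adjusted p = 4.73e-05). Entpd3 was at 3.08 and 4.19 CPM in NC and 6.07 and 9.18 CPM in KO (1.06, adjusted p = 0.00135), and it did not pass without KO2 (0.73, adjusted p = 0.0845). Exons of Npdc1 overlap those of Entpd2 on the same strand. Entpd8, the remaining surface ATPase gene of the family, had 1, 4, 4 and 5 counts and was not tested. Bst1, a gene of NAD breakdown, rose (0.42, adjusted p = 0.000894).

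Uptake and phosphorylation of adenosine were represented by Slc29a1, Slc29a2 and Adk. Slc29a1, the main equilibrative nucleoside transporter gene, fell (-0.36, adjusted p = 0.00258), as did Adk, which encodes the kinase that returns adenosine to AMP (-0.53, adjusted p = 0.000284), while Slc29a2 was at 0.065 (adjusted p = 0.750). Entpd7, whose enzyme acts inside the cell, fell from 60.1 and 60.7 to 34.2 and 34.0 CPM (-0.82, SE 0.10, adjusted p = 3.74e-07). On log2(TPM + 1) Adk was at -0.18 (limma adjusted p = 0.472) and Slc29a1 at -0.29 (adjusted p = 0.0828), and neither passed. Adenosine deaminase (Ada) had 28, 30, 53 and 45 counts in NC1, NC2, KO1 and KO2 and did not pass (0.67, adjusted p = 0.0838). Among the receptors, Adora2a was counted 9, 17, 19 and 25 times and did not pass (0.68, adjusted p = 0.223), Adora3 had no count, and Adora2b had 1 in all. The calls kept in each left-out fit were 5 of the 9. Besides Entpd3, calls were lost for Enpp1, whose product forms AMP from ATP (0.46, and 0.24 without KO2 with adjusted p = 0.416, 0.31 without NC2 with 0.253), Entpd4, of the Golgi and lysosome (0.37, adjusted p 0.0525 to 0.0897 without any 1 library) and Pnp, which breaks down inosine (-0.27, and -0.14 without NC1 with adjusted p = 0.447, -0.23 without KO1 with 0.122). These 3 passed neither with DESeq2 nor on log2(TPM + 1). Exons of other genes overlap those of Entpd4, Entpd7 (Cox15), Bst1 (Fbxl5), Slc29a1 and Pnp on the opposite strand, and exons of Gm49342 those of Pnp on the same strand.

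Ido1 (ENSMUSG00000031551.12, chromosome 8, 24584136 to 24597009) was counted 0 and 1 times in NC1 and NC2 and 5 and 1 times in KO1 and KO2. Over library totals without TMM adjustment, its level was 0.039 CPM in NC pooled (exact 95% Poisson interval 0.00099 to 0.22) and 0.23 CPM in KO (0.083 to 0.49). The intervals overlapped, and KO1 alone supplied 5 of the 6 KO counts. Of the other tryptophan-degrading enzymes, Tdo2 had no count, and Ido2 was counted 26, 18, 19 and 42 times and did not pass (0.37, edgeR adjusted p = 0.499).

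Downstream and uptake genes of the tryptophan pathway were read from 21 listed genes, of which 12 were tested. Kyat1 and Ahr were higher and Kyat3, Slc7a5, Wars and Cyp1a1 were lower, and the median was -0.11. The share that passed was 50% of the 12, beside 37.9% of all genes. Kyat1, a kynurenine aminotransferase gene, went from 3.43 and 2.09 CPM in NC1 and NC2 to 6.38 and 8.37 CPM in KO1 and KO2 (1.44, SE 0.27, adjusted p = 0.000115), while its relative Kyat3 was at 76.9 and 71.4 CPM in NC and 50.6 and 44.9 CPM in KO (-0.63, SE 0.10, adjusted p = 1.62e-05). Slc7a5, the tryptophan and leucine carrier gene, fell (-0.47, adjusted p = 0.000463), as did Wars, which encodes the enzyme that charges tryptophan tRNA (-0.44, adjusted p = 0.000510). On log2(TPM + 1) neither passed (-0.40 and -0.35, limma adjusted p = 0.0876 and 0.0941). Slc3a2, the partner of Slc7a5, was at -0.017 (adjusted p = 0.911). Ahr, the receptor that kynurenine can activate, rose (0.31, adjusted p = 0.00811), and Cyp1a1, a classical target of that receptor, fell (-0.36, adjusted p = 0.00407). Neither call was kept in every fit: Ahr was lost without NC1 (0.30, adjusted p = 0.0677) and Cyp1a1 without NC2 (-0.29, adjusted p = 0.0766), and both on log2(TPM + 1) (limma adjusted p = 0.0705 and 0.146). Kmo and Qprt, later enzymes of the pathway, had no count. Exons of Gm15540 overlap those of Kyat3, and exons of Gm48236 those of Ahr, on the opposite strand.

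**Figure D4:**
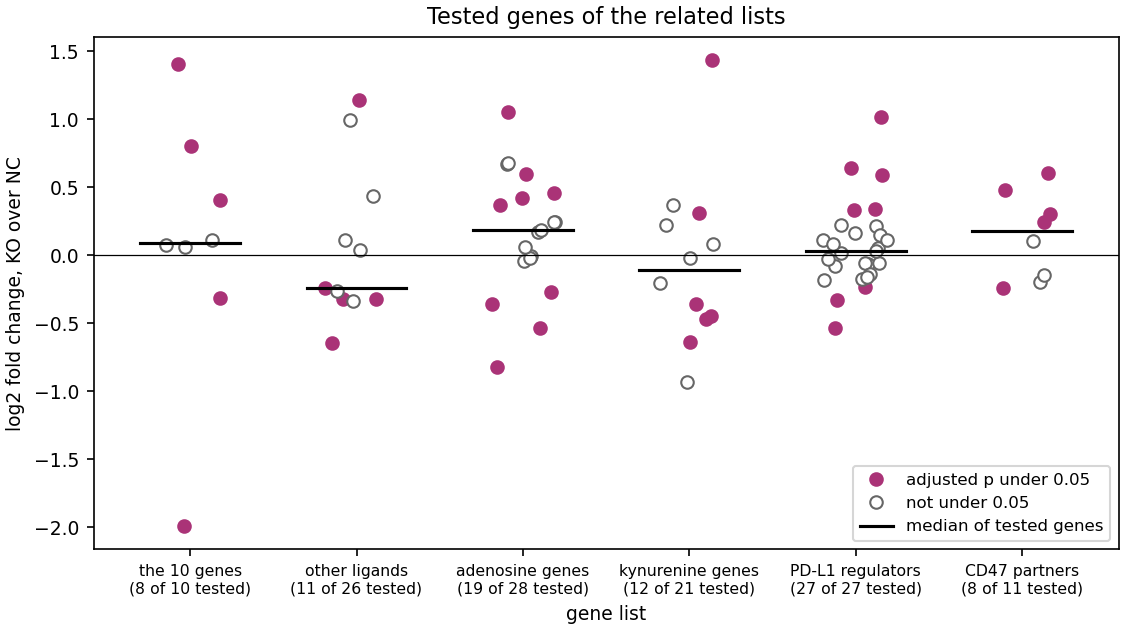
Log2 fold change (KO over NC) of each tested gene in the 10 genes and 5 related lists, filled where the adjusted p is under 0.05, with a line at each median. The medians run from -0.24 for the other ligands to 0.18 for the adenosine genes, and every list has filled points on both sides of 0.

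Genes known to act on the level of PD-L1 were read beside Cd274. All 27 in the list were tested, 5 rose, 3 fell, 19 did not pass, and the median was 0.035. The share that passed, 29.6%, stands beside 37.9% of all genes. Stat3, a transcription factor of cytokine signalling, was at 84.4 and 88.5 CPM in NC1 and NC2 and 134.1 and 135.2 CPM in KO1 and KO2 (0.64, SE 0.09, edgeR adjusted p = 4.61e-06). Stat2, of interferon signalling, also rose (0.59, adjusted p = 0.00184), as did Ifngr1 (0.33, adjusted p = 0.0115), a subunit of the interferon-gamma receptor. The interferon effector gene Irf1 did not pass (0.11, 95% interval -0.081 to 0.31, adjusted p = 0.370).

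The same list held genes of PD-L1 turnover. Hip1r, whose product sends PD-L1 to lysosomes, rose from 22.9 and 22.5 to 44.3 and 47.7 CPM (1.02, SE 0.11, adjusted p = 7.12e-08). Btrc, a ubiquitin ligase subunit gene, rose (0.34, adjusted p = 0.00895), while the cell-cycle kinase gene Cdk4 fell (-0.54, adjusted p = 6.23e-05). Ifngr1 did not pass without NC2 (0.25, adjusted p = 0.128) or KO2 (0.18, adjusted p = 0.235), and Btrc did not pass without NC1 (adjusted p = 0.0742) or on log2(TPM + 1) (0.24, limma adjusted p = 0.227). Of the 8 calls in this list, 4 were kept in each fit with a library left out and 7 with DESeq2. Exons of Stat5a, Tspan31, Vps37b and Gm6807 overlap those of Stat3, Cdk4, Hip1r and Btrc on the opposite strand, and exons of Gm37939 those of Hip1r on the same strand.

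Other ligands of lymphocyte receptors made a list of 26, of which 11 were tested, 1 rose, 4 fell, and 6 had no count in any library (Cd86, Cd70, Cd48, Cd200, Vsig4 and Fasl). The median was -0.24, and the share that passed was 45.5%, beside 37.9% of all genes. Fgl1, which encodes a liver-secreted ligand of LAG-3, rose from 5.81 and 6.72 CPM in NC1 and NC2 to 13.1 and 14.7 CPM in KO1 and KO2 (1.14, SE 0.18, edgeR adjusted p = 1.24e-05). Nectin3, a further member of the nectin family, fell (-0.65, SE 0.16, adjusted p = 0.00259), in the opposite direction to Nectin2, whereas Nectin1 did not pass (-0.34, adjusted p = 0.107). Lgals9, the galectin-9 gene (-0.32, adjusted p = 0.00594), and Hmgb1, a nuclear protein gene (-0.32, adjusted p = 0.00682), also fell. Cd24a, a further phagocyte signal, fell (-0.24, adjusted p = 0.0434) but not without NC2 (-0.15, adjusted p = 0.388) or KO1 (-0.19, adjusted p = 0.151). Hmgb1 shares exon sequence with Mm2pr on its own strand, and on log2(TPM + 1) its value was -0.084 (limma adjusted p = 0.690). Nectin3, Lgals9 and Cd24a did not pass on that scale either (limma adjusted p = 0.0895, 0.115 and 0.306), so Fgl1 alone of the 5 passed there. Cd80, a ligand gene of CD28 and CTLA-4, had 4, 5, 10 and 10 counts and was not tested.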

How the data were processed

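RNA from 4 Hepa1-6 libraries (NC1, NC2, KO1, KO2) was analysed. The authors' deposited expected counts are read estimates for each gene without normalisation, as the deposited column headers name them. The deposited TPM values are the authors' levels scaled by length, per the file headers. The gene lengths and the FPKM columns gave no result here. STAR, RSEM, FastQC and DESeq2 on GRCm38 are named in the submitters' processing notes, while versions, annotation release and strand setting are not given in the sources used here. RSEM divides reads that map to several genes, so totals of close relatives are uncertain.

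Expected counts were rounded to whole numbers, genes were kept by filterByExpr (minimum count 10), and KO was compared with NC by edgeR's quasi-likelihood test (edgeR 4.0.16, R 4.3.3, TMM scaling, group as the only term, all 4 libraries) across all 12510 genes kept, with Benjamini-Hochberg adjustment and a threshold of 0.05. The SE is the log2 fold change divided by the square root of F, and 95% intervals use the moderated degrees of freedom. Alternatives were DESeq2 1.42.0, other scalings, no filter, limma 3.58.1 with a mean-variance trend on log2(TPM + 1) and log2(TPM + 0.1), where a fold understates the change of low genes, the replicate number as a block, and leaving out each library. Where a group is left with 1 library, that library is assumed to vary like the other group. The fit was also run on simulated counts with the same dispersion for every gene and few genes changed. That run checks the code and does not check error rates in these data.

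Coordinates and overlaps come from GENCODE M21 (GRCm38), matched by gene ID without version for 54809 of 54838 genes. The 10 genes and the lists were chosen with earlier results of these data known. Named from each list were the genes past 0.05, at most 6 by lowest p, and a few genes of the lists are not reported here by name. Entpd4, Enpp1, Pnp and Ifngr1 and the genes that did not pass were named after their values were seen. Neighbours are tested genes within 200 kb. Gene lists were described by counts and medians, with no set test.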

Additional observations from a re-analysis of the deposited data

How the results depend on the processing

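Fits on TPM moved the counts most. With log2(TPM + 1) and log2(TPM + 0.1), limma called 2158 genes (1467 higher, 691 lower) and 2099 genes (1427 higher, 672 lower) against 4741 (2459 higher, 2282 lower) in the count fit, 3 of the 10 genes in both (Cd274, Nectin2 and Vtcn1) against 5, and, also in both, 1 against 5 of the other ligands, 4 against 9 adenosine genes, 2 against 6 kynurenine genes, 5 against 8 PD-L1 regulators and 1 against 5 CD47 partners. The cause was not tested. When limma was run on log2(TPM + 1) of the 20640 genes with a TPM above 0 in any library, 0 genes passed anywhere. Of these, 4506 genes, and 4 of the 10, had an unadjusted limma p under 0.05. Leaving out 1 library gave 3 to 4 CD47 partners and 4 to 5 of the 10 genes, and between 3507 and 4488 genes in all, each fit having fewer samples. DESeq2 called 3217 genes and 4 of the 10. Signs turned for Pdcd1lg2 without NC1 (-0.014, up to 0.13 over the left-out fits), Pvr without KO1 (-0.0021, up to 0.22) and Cd47 without KO2 (-0.015, up to 0.16), none of which passed in any fit. With the replicate number as a block (replicate block), 5006 genes and the same count of 5 of the 10 passed. The differences between replicates had a correlation of -0.012 across the groups, so no shared difference between replicate numbers was seen. This correlation cannot tell whether libraries of the same number were handled together. With 2 libraries a group, low counts (Vtcn1, Nt5e, Ido1, Entpd1) limit what could be detected.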
